A study of Mus musculus with 3 samples.

Results

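The Toll-like receptors described here are the 10 mouse genes Tlr1, Tlr2, Tlr3, Tlr4, Tlr5, Tlr6, Tlr7, Tlr8, Tlr9 and Tlr13, chosen by gene symbol out of 55536 gene entries. The RNA-seq libraries hold polyadenylated RNA of primary macrophages that were derived from C57BL/6J bone marrow, not of a cell line, after stimulation at 100 ng/mL for 480 minutes. The sample descriptions name lipid A, the part of bacterial lipopolysaccharide that Toll-like receptor 4 senses, whereas the treatment fields name lipoprotein A, so the stimulus is not settled by the labels. All 3 libraries, called replicates 1, 2 and 3, form 1 group. The labels call them biological replicates but give them the same donor entry, and sex and age were not collected, so the spread between libraries may be technical. There is no untreated group here, so every value is a level after stimulation and none is a change from rest.

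Toll-like receptors are membrane proteins that recognise microbial molecules and start inflammatory and interferon signalling through adaptors with a TIR domain. One group sits mainly at the cell surface and senses lipids and proteins: Tlr2, paired with Tlr1 or Tlr6, senses bacterial lipopeptides, Tlr4 senses lipopolysaccharide and Tlr5 senses flagellin. The other group sits in endosomes and senses nucleic acids: Tlr3 senses double-stranded RNA, Tlr7 and, in humans, TLR8 sense single-stranded RNA and its breakdown products, Tlr9 senses unmethylated CpG DNA and Tlr13 senses bacterial ribosomal RNA.

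The libraries held 26589042, 34344922 and 48356527 expected counts on genes in replicates 1, 2 and 3. Macrophage markers were present (8 of 8 at 1 TPM or more in every library). No marker of B cells (0 of 4), plasmacytoid dendritic cells (0 of 4), conventional dendritic cells (0 of 4) or T cells (0 of 3) reached that level in every library, and Cd3d and Cd3g were listed at 0. Clec9a, of conventional dendritic cells, missed it in replicate 1 alone, at 0.97, 3.95 and 4.39 TPM in replicates 1, 2 and 3. Of 7 neutrophil markers, S100a8 and S100a9 reached 1 TPM in every library, and Ngp, at 0.96, 43.3 and 1.00 TPM, missed it in replicate 1 alone. The summed level of all 7 was 22.2, 409.8 and 20.2 TPM in replicates 1, 2 and 3, highest in replicate 2. Elane, Mpo and Ly6g had no counts in replicates 1 and 3. The part of these markers in the values below was not tested. In RNA from whole cultures, fewer cells of a type and less RNA per cell cannot be told apart.

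Transcripts of 9 of the 10 receptors were detected, which means 1 TPM or more in all 3 libraries, and 9930 of the 55536 gene entries met the same rule. TPM is a level per transcript length, scaled to the same total in every library, so it can be compared between genes. Tlr1 was highest, Tlr7 and Tlr3 followed, and Tlr5 was the receptor not detected. The summed level of all 10 genes was 975, 906 and 998 TPM in replicates 1, 2 and 3.

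**Figure D1:**
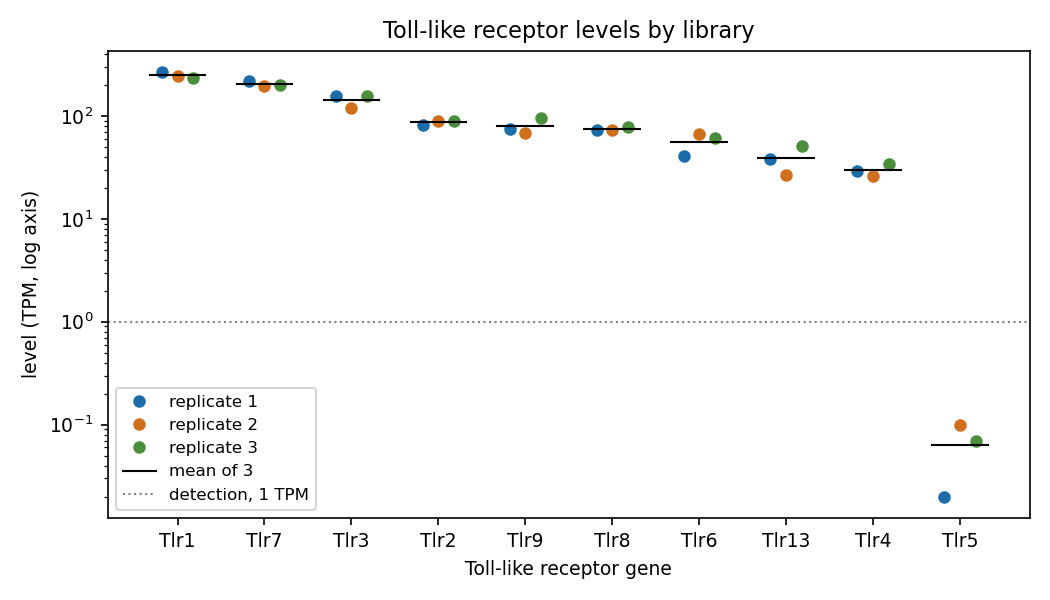
Level of each Toll-like receptor gene (x axis) in TPM on a log axis, 1 point per library, with the mean of 3 libraries as a bar. Tlr1 stands at a mean of 249 TPM and Tlr5 lies below the detection line of 1 TPM in every library.

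Among the surface receptors, Tlr1 (ENSMUSG00000044827.10, chromosome 5, 64924679 to 64933563, minus strand, mm10) stood at 267, 243 and 236 TPM in replicates 1, 2 and 3. Its mean of 249 ± 16.3 TPM (SD, n = 3) was above that of 93.5% of the other detected genes. Tlr2 (ENSMUSG00000027995.10, chromosome 3, 83836272 to 83841767, minus strand), the shared partner of Tlr1 and Tlr6, stood at 80.8, 89.7 and 88.5 TPM. These libraries lay close together, with a mean of 86.4 ± 4.81 TPM (SD, n = 3).

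Tlr6 (ENSMUSG00000051498.6, chromosome 5, 64952031 to 64960097, minus strand), the other partner of Tlr2, stood at 40.7, 66.7 and 61.1 TPM, lowest in replicate 1. Tlr4 (ENSMUSG00000039005.13, chromosome 4, 66827584 to 66930284, plus strand), the lipopolysaccharide receptor, stood at 28.9, 26.1 and 34.1 TPM. It was the lowest of the detected receptors, at 29.7 ± 4.05 TPM (SD, n = 3). Tlr5 (ENSMUSG00000079164.8, chromosome 1, 182954788 to 182976044, plus strand) had 1, 6 and 7 expected counts, which corresponded to 0.020, 0.10 and 0.070 TPM. At so few counts its libraries cannot be ranked.

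Among the endosomal receptors, Tlr7 (ENSMUSG00000044583.13, chromosome X, 167304929 to 167330558, minus strand) stood at 219, 194 and 197 TPM in replicates 1, 2 and 3, a mean of 203 ± 13.2 TPM (SD, n = 3). Tlr3 (ENSMUSG00000031639.12, chromosome 8, 45395665 to 45411080, minus strand) stood at 154, 118 and 157 TPM, with replicate 2 below the other libraries. An antisense gene, Gm45542, overlaps Tlr3 by 698 bases and had 0, 0 and 7 expected counts. Whether counting used the strand is not given in the sources used here, so a share of reads from the antisense gene cannot be set apart.

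Tlr9 (ENSMUSG00000045322.10, chromosome 9, 106222598 to 106226883, plus strand) stood at 74.0, 68.4 and 95.6 TPM, highest in replicate 3, with a mean of 79.3 ± 14.4 TPM (SD, n = 3). Tlr8 (ENSMUSG00000040522.5, chromosome X, 167242696 to 167264329, minus strand) stood at 72.3, 72.5 and 77.4 TPM, a narrow range around 74.1 ± 2.90 TPM (SD, n = 3). Tlr13 (ENSMUSG00000033777.4, chromosome X, 106143204 to 106160493, plus strand) stood at 38.1, 26.9 and 51.2 TPM and had the widest relative range of the detected receptors, with its lowest value in replicate 2 and its highest in replicate 3.

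Summed, the 5 endosomal receptors stood at 557, 480 and 578 TPM in replicates 1, 2 and 3, against 417, 426 and 419 TPM for the 5 surface receptors. The endosomal sum was the higher in all 3 libraries, with a log2 ratio of sums of 0.35 ± 0.16 (SD, n = 3). All 5 endosomal receptors and 4 of 5 surface receptors were detected, and the median member stood at 79.3 TPM in the endosomal group and 56.2 TPM in the surface group. The mean log2 ratio was over 2 SD by a small margin. It was not with the median member in place of the sum, at 0.54 ± 0.38, nor in the second deposited quantification, at 0.23 ± 0.17, nor on transcripts with a complete coding sequence, at 0.19 ± 0.19, nor without replicate 1, at 0.32 ± 0.20, or without replicate 3, at 0.30 ± 0.17 (SD, n = 2 without a replicate).

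Neighbours in the order of levels were called apart where the difference of log2(TPM + 0.1) had the same sign in all 3 libraries and its mean was over 2 SD. An exact sign-flip test of 3 libraries cannot go below p = 0.25, so no p is given. By this rule 4 of 9 neighbouring pairs were apart. Tlr1 exceeded Tlr7 by 0.29 ± 0.03 log2 units (SD, n = 3). Tlr7 exceeded Tlr3 by 0.52 ± 0.19 and Tlr3 exceeded Tlr2 by 0.72 ± 0.28 log2 units. Tlr4 lay above Tlr5 in 3 of 3 libraries, but the size of that difference depends on the pseudocount, since Tlr5 had 1 to 7 counts, and is not given. From Tlr2 down through Tlr9, Tlr8, Tlr6 and Tlr13 to Tlr4, no neighbour differed from the next beyond its spread. Receptors farther apart in that run did differ by the same rule. Tlr2 exceeded Tlr4 by 1.54 ± 0.21 and Tlr6 by 0.65 ± 0.30 log2 units (SD, n = 3). Leaving out replicate 2 raised the count of neighbouring pairs called apart to 6 of 9.

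Tlr1 and Tlr6, the alternative partners of Tlr2, lie 18467 bases apart on the same strand. Tlr1 exceeded Tlr6 in 3 of 3 libraries, by 2.17 ± 0.47 log2 units (SD, n = 3) or 4.51-fold on the log2(TPM + 0.1) scale. The coding part of each lies in 1 exon, 2388 bases long in Tlr1 and 2421 in Tlr6. The coding sequences were identical at 75.6% of 2364 aligned bases. Along the Tlr1 coding sequence, identity was 61.4% over bases 1 to 594, 58.5% over bases 595 to 1198, 92.2% over bases 1199 to 1789 and 90.0% over bases 1790 to 2388. Windows of 50 bases found in both genes made up 19.1% of the Tlr6 windows, 454 of 2372. Of the 45 pairs of receptors, 1 pair, Tlr1 and Tlr6, shared any such window. Over the same 45 pairs, the median identity of aligned coding bases was 58.5% and the lowest was 53.1%. The pair next below Tlr1 and Tlr6 was Tlr4 and Tlr7, at 62.9%.

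**Figure D2:**
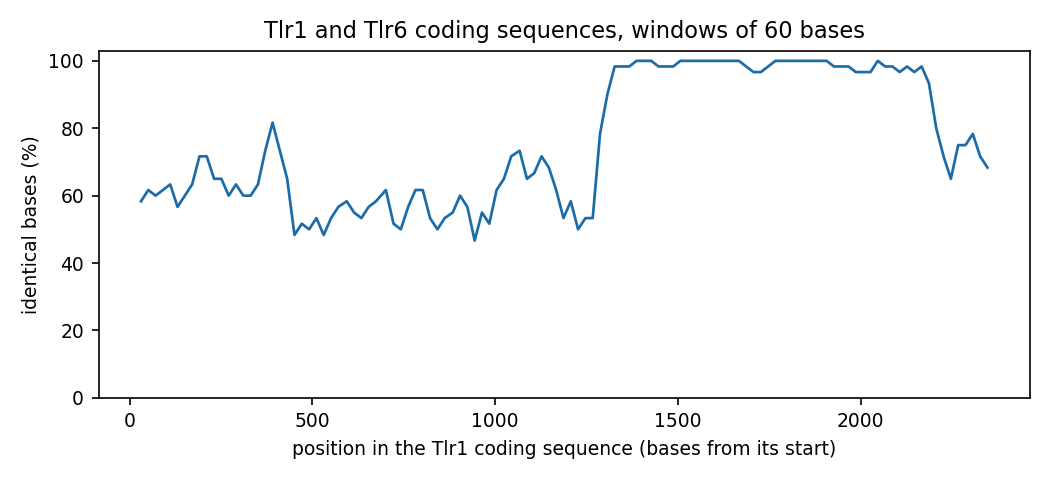
Identical bases between the Tlr1 and Tlr6 coding sequences (y axis, percent of aligned bases in windows of 60) along the Tlr1 coding sequence (x axis, bases from its start). Identity is 58.5% over bases 595 to 1198 and 92.2% over bases 1199 to 1789.

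The longest identical run, 229 bases, is shown because a read that falls inside it fits both genes. It lies at chr5:64925537-64925765 in Tlr1, coding bases 1468 to 1696, and at chr5:64953828-64954056 in Tlr6, coding bases 1507 to 1735 (mm10, minus strand, from the GENCODE transcripts).
Tlr1 and Tlr6 shared run: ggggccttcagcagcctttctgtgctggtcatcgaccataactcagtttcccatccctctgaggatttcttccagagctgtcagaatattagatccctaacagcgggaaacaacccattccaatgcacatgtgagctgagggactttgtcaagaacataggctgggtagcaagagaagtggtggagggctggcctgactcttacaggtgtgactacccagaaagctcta
A stretch of 120 bases where the genes differ at 61 positions is shown beside it, with the differing bases in capitals. It lies at chr5:64926690-64926809 in Tlr1 and chr5:64954975-64955094 in Tlr6, and reads inside it tell the genes apart.
Tlr1 differing stretch: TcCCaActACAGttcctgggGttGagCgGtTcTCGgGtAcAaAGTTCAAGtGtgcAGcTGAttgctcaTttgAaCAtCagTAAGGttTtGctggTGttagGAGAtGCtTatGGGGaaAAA
Tlr6 differing stretch: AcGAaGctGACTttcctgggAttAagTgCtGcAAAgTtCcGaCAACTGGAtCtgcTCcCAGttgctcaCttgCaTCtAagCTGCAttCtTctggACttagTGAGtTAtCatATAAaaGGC
The deposited posterior SD of the count, which measures how far reads could be reassigned, was 5.89, 6.53 and 7.50 counts in replicates 1, 2 and 3 for both Tlr1 and Tlr6. Set against 11262, 13666 and 17667 expected counts for Tlr1 and 1844, 2569 and 3419 for Tlr6, it was small. It was at most 0.67 counts for Tlr3 and 0 for the other receptors.

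Tlr6 differed more between libraries in level than in reads. Scaled by TMM, a normalisation that assumes most genes do not differ, Tlr6 had 72.1, 70.3 and 72.4 CPM, counts scaled to library size, in replicates 1, 2 and 3, against 40.7, 66.7 and 61.1 TPM. The reads were not called different between libraries by a chi-square test after TMM scaling (adjusted p = 0.551), but were with library totals alone (adjusted p = 0.0356) and in the second quantification (adjusted p = 0.0163). The effective length used for its TPM was 2610, 1632 and 1745 bases. The annotation holds a pair of transcripts: Tlr6-201, with the complete coding sequence, and Tlr6-202, 446 bases long and without an annotated coding end. Tlr6-202 held 34.2, 145 and 173 expected counts but 25.1%, 54.6% and 51.1% of the gene's TPM. In the second quantification its share was 45.4%, 61.5% and 60.7%, so the share rests on the method, most in replicate 1. Tlr6-201 alone stood at 30.5, 30.3 and 29.8 TPM, with a coefficient of variation of 1.17%.

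**Figure D3:**
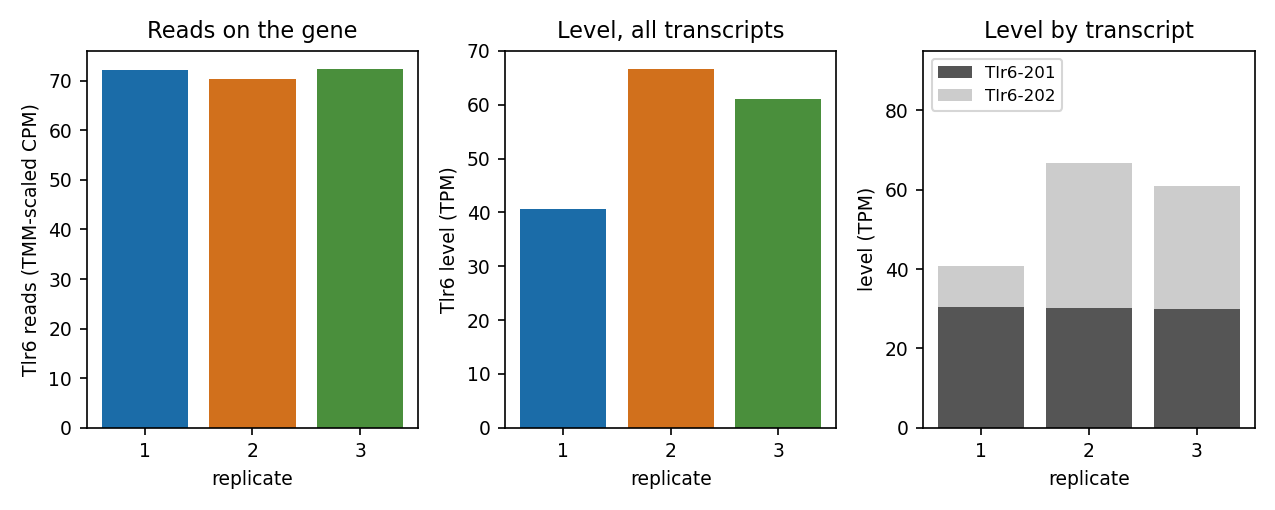
Tlr6 in replicates 1, 2 and 3 as reads on the gene (left, TMM-scaled CPM), level over all transcripts (middle, TPM) and level by transcript (right, TPM, bars stacked). Reads run from 70.3 to 72.4 CPM and Tlr6-201 from 29.8 to 30.5 TPM, and Tlr6-202 makes up the rest of the level.

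Counting only transcripts with a complete annotated coding sequence, a choice made after this was seen, changed the order. Tlr1 then exceeded Tlr6 by 2.91 ± 0.10 log2 units (SD, n = 3) or 7.50-fold, against 4.51-fold over all transcripts. On that count Tlr6 averaged 30.2 ± 0.354 TPM and Tlr4 averaged 28.8 ± 2.86 TPM (SD, n = 3), and they were not apart. Tlr3 averaged 96.3 ± 16.8 TPM there, against 143 ± 21.6 TPM over all transcripts, and was not apart from Tlr2. This view kept 79.52%, 81.19% and 83.15% of the Tlr3 counts in replicates 1, 2 and 3, the lowest shares among the detected receptors. Tlr3-206, which it leaves out, held 20.26%, 18.36% and 16.63% of them. Tlr9 and Tlr8 were apart there, by 0.48 ± 0.22 log2 units, and again 4 of 9 neighbouring pairs were apart, with this pair in place of Tlr3 and Tlr2.

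**Figure D4:**
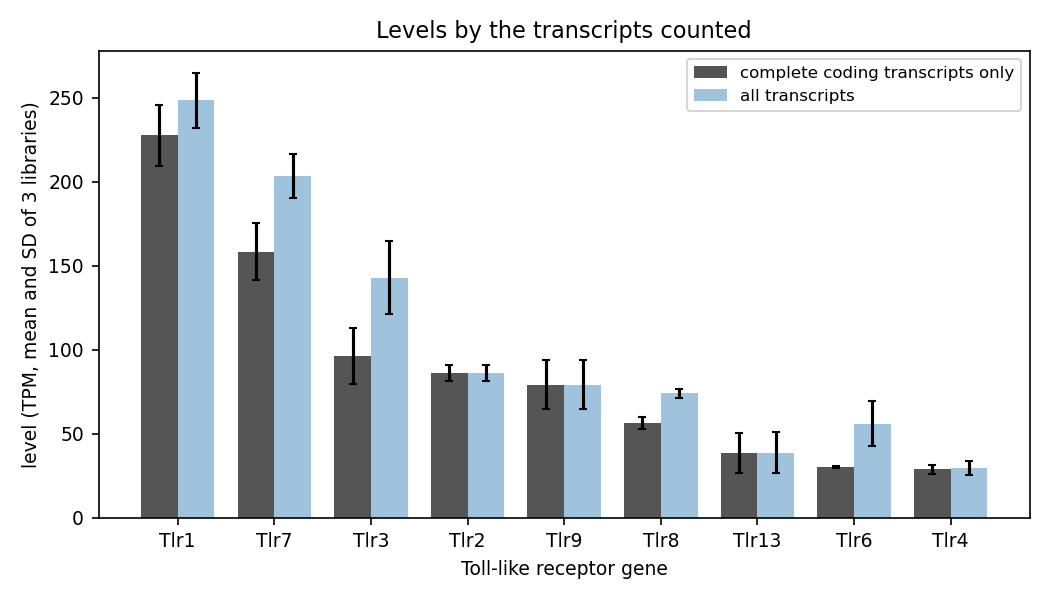
Level of the 9 detected receptors (TPM, mean with SD of 3 libraries) on complete coding transcripts and on all transcripts of the gene. Tlr6 stands at 30.2 TPM on complete coding transcripts and 56.2 TPM on all transcripts, and Tlr2 and Tlr9, with 1 transcript each, are the same in both.

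Tlr7, a sensor of RNA, and its relative Tlr8 lie 40599 bases apart on chromosome X. Tlr7 exceeded Tlr8 in 3 of 3 libraries, by 1.46 ± 0.13 log2 units (SD, n = 3) or 2.74-fold. Their coding sequences shared no window of 50 bases. In the second deposited quantification the difference was 1.10 ± 0.19 log2 units.

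Of the 10 receptors, 8 had the same main transcript, the one with the largest share of TPM, in all 3 libraries. The others were Tlr6 and Tlr5, and Tlr5 had too few counts to tell. Tlr1-201 held 61.9%, 58.6% and 61.9% of Tlr1, and Tlr1-202, which starts further upstream and has the same coding length, held 31.0%, 33.2% and 28.3%. Tlr3 was spread over several transcripts. Tlr3-205 held 35.8%, 44.2% and 50.1% in replicates 1, 2 and 3, and Tlr3-206, whose coding start is not annotated, held 30.9%, 27.3% and 25.7%. In the second quantification Tlr3-205 held 58.0%, 62.5% and 68.3%, and Tlr3-201 held 10.2%, 12.7% and 11.1%, against 29.2%, 21.5% and 20.0% in the first. Tlr8-202 held 48.7%, 41.1% and 45.0% of Tlr8. Tlr8-201 held 32.9%, 31.0% and 29.5% there but had 0 estimated counts in every library of the second quantification, so its share rests on the method. Tlr7-202 held 9.88%, 11.1% and 10.1% of Tlr7, against 30.3%, 35.4% and 31.9% in the second quantification. Tlr2 and Tlr9 have 1 annotated transcript each, so their agreement between libraries was fixed. Tlr4-201 held 98.9%, 99.9% and 93.2% of Tlr4, and Tlr13-201 held 100%, 100% and 99.3% of Tlr13. The share of all genes with the same main transcript was not computed, so 8 of 10 is a description only.

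Variation between the libraries was larger than counting error for most receptors, as it was for most genes. Rounded expected counts after TMM scaling were compared by chi-square (2 degrees of freedom, Benjamini-Hochberg adjusted over 12414 genes), which called 8 of the 9 receptors tested, against 70.9% of all genes tested. Of 4185 genes averaging 1000 counts or more, 90.8% were called, so the receptors' count is near that of genes of like depth. Adjusted p of the 8 called receptors ran from 4.33e-193 for Tlr3 to 0.000217 for Tlr2. This test compares these libraries and not conditions. Tlr6 was not called (adjusted p = 0.551, chi-square test between libraries), and Tlr5 was under the minimum mean count of 10.

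The largest relative range was that of Tlr13, with 98.1, 65.6 and 130.5 TMM-scaled CPM in replicates 1, 2 and 3. Its highest library was 1.99-fold its lowest (chi-square adjusted p = 4.75e-186). It was the 1 receptor of 9 past 1.5-fold, against 37.9% of all genes tested and 18% of those averaging 1000 counts or more. Tlr7 had 421, 322 and 375 CPM and Tlr1 had 440.0, 374 and 374 CPM, both highest in replicate 1. Tlr8 had 124, 105 and 121 CPM, and Tlr4 had 73.9, 63.9 and 82.3 CPM, highest in replicate 3. Tlr2 had 151, 158 and 164 CPM, the one receptor lowest in replicate 1. Tlr3 had 345, 241 and 349.9 CPM and Tlr9 had 161, 141 and 207. The median coefficient of variation was 12.6% over the 9 receptors, 16.5% over all genes tested and 11.6% over those averaging 1000 counts or more.

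**Figure D5:**
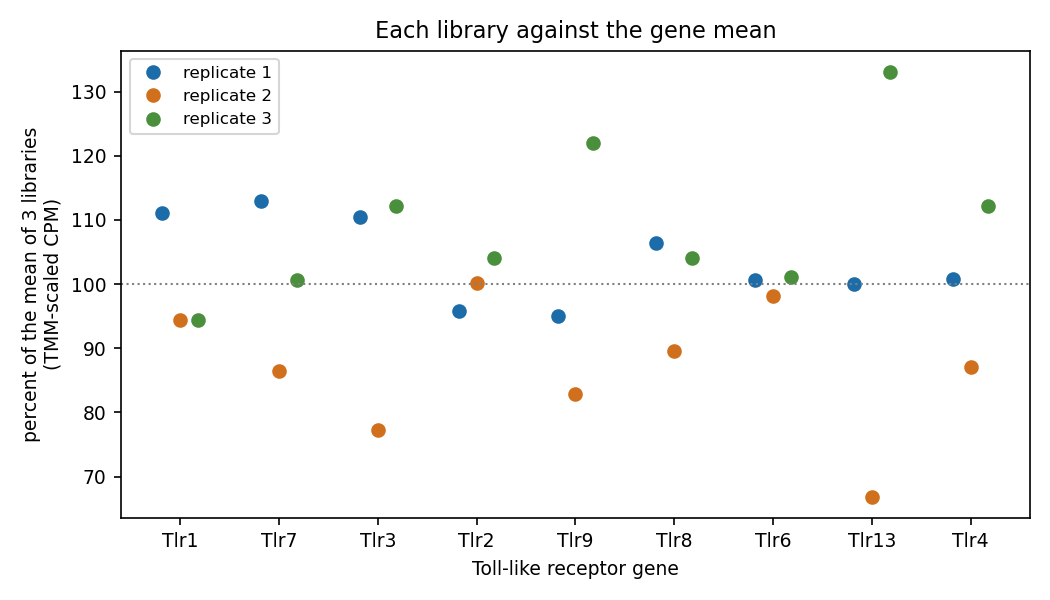
CPM after TMM scaling in each library, as percent of the gene's mean over 3 libraries, for the 9 receptors tested. Replicate 2 is the lowest point for 8 of them, though nearly level with replicate 3 for Tlr1, and the points of Tlr13 are the farthest apart.

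Replicate 2 was the lowest library for 8 of 9 receptors after TMM scaling, all but Tlr2, against 39.1% of all genes tested and 47.9% of those averaging 1000 counts or more. For Tlr1, replicates 2 and 3 were nearly level, at 373.99 and 374.15 CPM. Tlr6 was not called different between libraries (adjusted p = 0.551, chi-square). The count was 7 of 9 with relative log expression factors, against 37.8% of all genes, and 6 of 9 with library totals alone, where Tlr1 was lowest in replicate 3 and Tlr6 in replicate 1, against 28.1% of all genes. In counts, Tlr3, Tlr4, Tlr7, Tlr8, Tlr9 and Tlr13, which include all 5 endosomal receptors, were lowest in replicate 2 under all 3 scalings. The share of all genes lowest there under all 3 scalings was not computed. In TPM, Tlr8 was lowest in replicate 1, at 72.3 against 72.5 TPM in replicate 2. In TPM of the second quantification, Tlr3 and Tlr13 were lowest in replicate 2. By that measure Tlr4, Tlr8 and Tlr9 were lowest in replicate 1, and Tlr7 in replicate 3. Replicate 2 also had the highest neutrophil marker sum, 409.8 TPM, and the part of these markers in the low counts was not tested. Leaving out replicate 2 ended the calls of Tlr3 (adjusted p = 0.394, chi-square) and Tlr8 (adjusted p = 0.427), and leaving out replicate 1 ended that of Tlr1 (adjusted p = 0.977).

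A further 6 gene lists cover folding and trafficking, co-receptors and ligand carriers, proteases, nucleases, TIR adaptors and the other mouse receptors Tlr11 and Tlr12. Of their 35 genes, 32 were detected, and the count over all gene entries by the same rule is given above. Of the 34 that could be tested, 29 varied between libraries by the same chi-square test, or 85.3%, against 70.9% of all genes and 90.8% of those averaging 1000 counts or more. All 11 folding and trafficking genes were detected, led by the endosomal transporter Slc15a3 at 1057 ± 9.66 TPM (SD, n = 3), Unc93b1, which escorts nucleic acid-sensing receptors to endosomes, at 498 ± 22.9 TPM and the kinase Syk at 276 ± 30.6 TPM. Of the co-receptors and ligand carriers, 5 of 6 were detected. Cd14, which passes lipopolysaccharide to the Tlr4 complex, stood at 756 ± 102 TPM, Cd180 at 605 ± 147 TPM and its partner Ly86 at 365 ± 21.1 TPM. Cd36, a lipid scavenger receptor that assists Tlr2, stood at 46.6, 390.2 and 111 TPM in replicates 1, 2 and 3, highest in replicate 2.

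All 5 proteases of endosomes, which cut endosomal receptors into their active form, were detected: Ctsb stood at 9348 ± 608 TPM, Ctss at 3590 ± 475 TPM and Lgmn at 1287 ± 44.2 TPM (SD, n = 3). All 6 nucleases that make or remove receptor ligands were detected. Pld3 stood at 802 ± 45.4 TPM, Rnaset2b at 609 ± 64.7 TPM and Rnaset2a at 167 ± 20.9 TPM. The sequences of the Rnaset2 copies were not compared here, and the split between them may be uncertain. The deposited posterior SD of the Rnaset2a count was 65.1, 76.4 and 93.4 counts in replicates 1, 2 and 3. Its expected counts were 4251, 5854 and 9917.

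Of the TIR adaptors, 4 of 5 were detected. Myd88, used by every receptor here but Tlr3, stood at 230.3 ± 20.1 TPM (SD, n = 3). Ticam1, the adaptor of Tlr3 and of endosomal Tlr4, stood at 22.6 ± 0.956 TPM, and Ticam2, which links Tlr4 to Ticam1, at 11.4 ± 0.857 TPM. Sarm1 had 0, 0 and 4 expected counts. Of the other mouse receptors, Tlr11 stood at 1.04, 1.12 and 1.65 TPM, just past detection, and Tlr12, like it a sensor of parasite profilin, at 0.22, 0.44 and 0.29 TPM.

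Genes with a level most like that of Tlr1 over the 3 libraries, by root mean square difference of log2 TPM, were Edf1 (0.0342), Sh3bp5 (0.0635) and Plekho2 (0.073). Those most like Tlr4 were Col4a3bp (0.0432), Tmem67 (0.0574) and Cds1 (0.0868). These come from 9920 candidates and 3 libraries, and 7 candidates lay within 0.1 of each gene.

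RefSeq promoter windows of 300 bases (GRCm38.p6) were matched for 8 receptors, with 10 windows in all. Tlr4 and Tlr7 were not matched. The PU.1 ETS core, a motif of a myeloid factor (GAGGAAGT, searched on both strands), occurred in 1 of the Tlr1 windows and in the Tlr9 window, and in 3.2% of all 32851 windows. The Tlr1 window that holds it is the one at the start of Tlr1-202, and the window nearest the start of the main transcript Tlr1-201 held none of the motifs searched. The interferon-stimulated response element core (GAAANNGAA, both strands) occurred in windows of Tlr6 and Tlr8 and in 8.56% of all. The Tlr6 window that holds it lies around a RefSeq start 881 bases from the nearest GENCODE start. The TATA box (TATAAA, both strands) also occurred in windows of Tlr6 and Tlr8 and in 13.6% of all. The Rel site core (GGAANTTCC, both strands) occurred in no receptor window and in 0.928% of all. Other spellings of a Rel site were not searched, and the Tlr2 window holds ggggaattccc, which these letters do not match. A match to these letters is a description and not a bound site. Of the receptors with a match, windows of Tlr1, Tlr9 and Tlr8 are shown as examples, with motif letters in capitals, and those of Tlr6 are not shown.
Tlr1 promoter at the Tlr1-202 start, chr5:64933509-64933808, minus strand: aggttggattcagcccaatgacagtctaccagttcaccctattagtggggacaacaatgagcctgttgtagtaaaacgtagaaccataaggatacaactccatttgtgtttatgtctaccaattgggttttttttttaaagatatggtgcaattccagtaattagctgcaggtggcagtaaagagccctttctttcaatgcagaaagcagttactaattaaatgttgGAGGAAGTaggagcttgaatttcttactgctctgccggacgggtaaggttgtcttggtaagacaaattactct
Tlr9 promoter, chr9:106222348-106222647, plus strand: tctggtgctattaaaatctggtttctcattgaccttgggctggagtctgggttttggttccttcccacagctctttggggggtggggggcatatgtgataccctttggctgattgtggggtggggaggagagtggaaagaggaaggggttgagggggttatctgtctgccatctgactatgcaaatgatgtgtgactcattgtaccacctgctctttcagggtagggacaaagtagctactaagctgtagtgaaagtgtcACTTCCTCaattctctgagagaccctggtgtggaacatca
Tlr8 promoter, chrX:167264280-167264579, minus strand: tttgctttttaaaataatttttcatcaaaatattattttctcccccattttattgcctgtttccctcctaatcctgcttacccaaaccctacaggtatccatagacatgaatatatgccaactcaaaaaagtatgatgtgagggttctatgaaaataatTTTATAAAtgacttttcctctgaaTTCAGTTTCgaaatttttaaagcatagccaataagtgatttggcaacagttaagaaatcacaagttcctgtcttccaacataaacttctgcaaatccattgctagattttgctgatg
In the Tlr8 window the capitals hold a pair of overlapping TATAAA matches, 1 per strand, followed by the interferon-stimulated response element core on the opposite strand.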

How the data were processed

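Polyadenylated RNA of 3 libraries in 1 group was analysed from the deposited quantification tables. Per the readme deposited with each library, reads were quantified on mm10 with GENCODE M21; what program, aligner and strand setting were used is not given in the sources used here. The deposited gene and transcript tables of a library hold, per the file headers, expected counts, TPM, FPKM and, as percent, how the TPM of a gene divides over its transcripts. There was also a second transcript table, with estimated counts and TPM.

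Levels are the deposited TPM values, and log2 differences add a pseudocount of 0.1 TPM. Expected counts were rounded and scaled by TMM (edgeR 4.0.16, R 4.3.3), and the libraries were compared by chi-square where the mean count reached 10, adjusted by Benjamini-Hochberg at 0.05. No test between groups was possible with 1 group. Entries that are not genes (26345) were left out of totals. On simulated data the chi-square test recovered 73% of 1.5-fold and 88% of 2-fold differences (100 genes each) and called 0.0164% of 12226 unchanged genes. The simulated counts held counting error only, with no further spread between libraries. The low share of unchanged genes called follows from that and is not an error rate for these libraries. Counting error ran from 0.751% to 2.33% of a count for detected receptors and covers counting only.

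All 10 members are named, as are Tlr11, Tlr12, the 3 highest genes of each list and 3 genes most like Tlr1 and Tlr4. The values of Sarm1 and Cd36 and the views by complete coding transcript, by scaling and by lowest library were chosen after values were seen. The members and lists were chosen with earlier results of these data known. Protein identity, planned, was replaced by coding sequence identity. Python scripts used numpy, pandas, Biopython and matplotlib.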

Additional observations from a re-analysis of the deposited data

How the results depend on the processing

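In their means, the endosomal over surface ratio and the Tlr1 over Tlr6 and Tlr7 over Tlr8 differences kept their direction under every alternative run. By library, the endosomal sum lay just below the surface sum in replicate 2 on complete coding transcripts. The order of levels changed between runs. Tlr13 lay above Tlr6 by 0.30 ± 0.47 log2 units on complete coding transcripts, and in the second quantification Tlr8 (74.3 TPM) lay above Tlr2 (70.7 TPM) and Tlr9 (66.2 TPM). The endosomal over surface log2 ratio of sums was 0.35, and it was 0.60 on expected counts not divided by length, 0.54 ± 0.38 (SD, n = 3) with the median member and 0.19 on complete coding transcripts. The Tlr1 over Tlr6 difference of 2.17 was 2.91 on complete coding transcripts, an alternative chosen after seeing the data. The Tlr7 over Tlr8 difference of 1.46 was 1.10 in the second quantification and 1.67 on expected counts. The number of genes called between libraries was 8799, and leaving out each replicate in turn it ran from 5299 to 7459, lowest without replicate 2. With no count minimum it was 9075 of 20429 genes. Across the same omissions the members called ran from 6 to 8, neighbours apart from 3 to 6, Tlr1 over Tlr6 from 1.91 to 2.33, Tlr7 over Tlr8 from 1.39 to 1.51 and the endosomal over surface ratio from 0.30 to 0.44. Tlr6 was called at adjusted p = 0.0356 with library totals alone and 0.0163 in the second quantification (chi-square), against 0.551. Members detected stayed at 9 under every alternative run. No paired comparison between groups was possible because all libraries belong to 1 group. Differences between receptors were taken within each library. Depth limits the values of Tlr5, with 1 to 7 counts.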
